A study of Rattus norvegicus with 15 samples.

Results

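The olfactory receptor (OR) genes of rat chromosome 8 were examined in olfactory epithelium, the tissue of the nasal cavity in which odorants are detected. Members were taken from the annotation of the array: every probe, other than a control, whose gene name begins with Olr and whose position lies on chromosome 8. The rule gave 147 probes for 146 genes, out of 1112 probes with an Olr name and 41012 probes in all. Olr1271 is the gene with a pair of probes.

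The tissue came from untreated Brown Norway rats aged 6 weeks, 4 males and 4 females. Nostrils A and B of each rat were measured on separate one-color Agilent arrays, except in male 1, for which nostril A alone was measured, so that there were 7 male and 8 female arrays. Rats are named here by sex and by their number in the labels, which do not say which nostril is left. The labels name separate animals, and the arrays of an animal share that animal. A signal is given as log2 of the intensity over the median intensity of its array, so 0 is the median probe of the array.

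An OR is a receptor of the olfactory neuron's cilia that binds odorants. Mature olfactory neurons each express mainly a single OR gene, from a single allele, and the identity of that gene depends in part on where in the epithelium the neuron lies. The level of an OR transcript in whole tissue therefore reflects how many neurons chose the gene and how much transcript each holds. In these samples fewer neurons of a type and less RNA per neuron cannot be told apart. OR genes lie in tandem clusters on many chromosomes, and neighbours in a cluster are often close relatives, so their probes can share sequence.

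On build rn3 of the rat genome the members formed 2 clusters. Cluster 1 ran from Olr1115 to Olr1193 (chr8:16102355-19331025) and held 44 probes. Cluster 2 ran from Olr1194 to Olr1341 (chr8:38981734-43149183) and held 103 probes. The gap between them was 19.7 Mb. Accessions of 145 of the 147 probes matched RefSeq, and 139 had a current family symbol. By these symbols cluster 1 held mainly Or7 genes (25 probes for Or7g, 8 for Or7e, 5 for Or7d and 2 for Or7h) and Or1m1. Cluster 2 held Or8 genes (37 probes for Or8b, 29 for Or8g, 12 for Or8c, 2 for Or8a and 1 for Or8d) and a group of Or10 genes (10 probes for Or10d, 2 each for Or10g and Or10n and 1 for Or10s), with Or4d5 and Or6x1. The array annotation gives no exons, introns or untranslated regions.

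Because relatives lie side by side, the 60-base probes of the members were compared with the probes of all 1138 OR probes on the array. For 81 of the 147 the most similar probe was that of another OR on chromosome 8. In 104 the closest probe had fewer than 40 matching bases, and in 6 it had at least 50. Those 6 form 3 pairs, shown with the differing bases in capitals because the pairs bear on how far neighbours can be told apart.
Olr1194 (chr8:38981734-38981793, minus strand): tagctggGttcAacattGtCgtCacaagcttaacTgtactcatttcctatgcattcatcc
Olr1195 (chr8:39010250-39010309, minus strand): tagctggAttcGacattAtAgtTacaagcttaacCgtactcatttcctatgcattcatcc
Olr1139 (chr8:17304966-17305025, minus strand): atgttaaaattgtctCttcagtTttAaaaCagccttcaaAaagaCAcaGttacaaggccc
Olr1146 (chr8:17624972-17625031, plus strand): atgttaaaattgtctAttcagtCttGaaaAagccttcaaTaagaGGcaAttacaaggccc
Olr1230 (chr8:40503055-40503114, plus strand): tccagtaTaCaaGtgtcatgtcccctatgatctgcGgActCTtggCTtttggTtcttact
Olr1234 (chr8:40553606-40553665, plus strand): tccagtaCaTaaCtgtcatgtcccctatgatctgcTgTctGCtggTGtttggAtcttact

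The first pair, Or8a1b and Or8a1, differed at 6 of 60 bases and had different calls. Olr1194 was well above background on 14 of 15 arrays and Olr1195 on 0. Olr1139 and Olr1146 differed at 8 bases and were both detected on 0 arrays. Olr1230 and Olr1234 differed at 10 bases and were detected on 11 and 12 arrays, and shared signal and a signal of each cannot be told apart for this pair. In addition, the annotation listed more than 1 RefSeq transcript for 15 of the 147 probes. Among those with values given below, the probe of Olr1261 (Or8b54b) also listed Or8b54c, the gene of Olr1262, and the probe of Olr1318 (Or8g50b) also listed Or8g50, the gene of Olr1320. The probe of Olr1226 (Or8c18) also listed Or8c16c, that of Olr1237 (Or8b43b) also Or8b43, and that of Olr1198 also Or8b12d.

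The first question was which of these receptors the tissue expressed at a detectable level. A probe well above background on at least 11 arrays was called expressed, on 1 to 10 arrays weakly expressed and on 0 arrays not expressed. Expressed members numbered 80 of 147 (54.4%), with 29 (19.7%) weakly expressed and 38 (25.9%) not expressed. Among the 991 other OR probes the shares were 66.0%, 15.8% and 18.2%, and among all probes 65.1%, 11.1% and 23.8%. A count of 0 says that the probe did not stand clear of background and not that the gene was silent. With the looser call of a positive and significant signal, 111 probes (75.5%) were expressed and 8 were seen on no array. By that call 83.5% of other OR probes and 76.7% of all probes were expressed. The median GC content of the probes was 40% in expressed, 38.3% in weakly expressed and 36.7% in not expressed members, and its part in the calls was not tested.

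The clusters differed in these counts, more so by the stricter call. Cluster 1 had 44 probes, of which 14 (31.8%) passed as expressed, 12 as weakly expressed and 18 (40.9%) as not expressed. In cluster 2, 66 of 103 (64.1%) were expressed, 17 weakly expressed and 20 (19.4%) not expressed. By the looser call 30 of 44 (68.2%) and 81 of 103 (78.6%) were expressed. By subfamily, 7 of 25 Or7g and 2 of 8 Or7e probes were expressed, against 22 of 37 Or8b, 20 of 29 Or8g, 8 of 12 Or8c and 6 of 10 Or10d probes. The shares are a description, since members of a subfamily share sequence and are not independent.

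**Figure D1:**
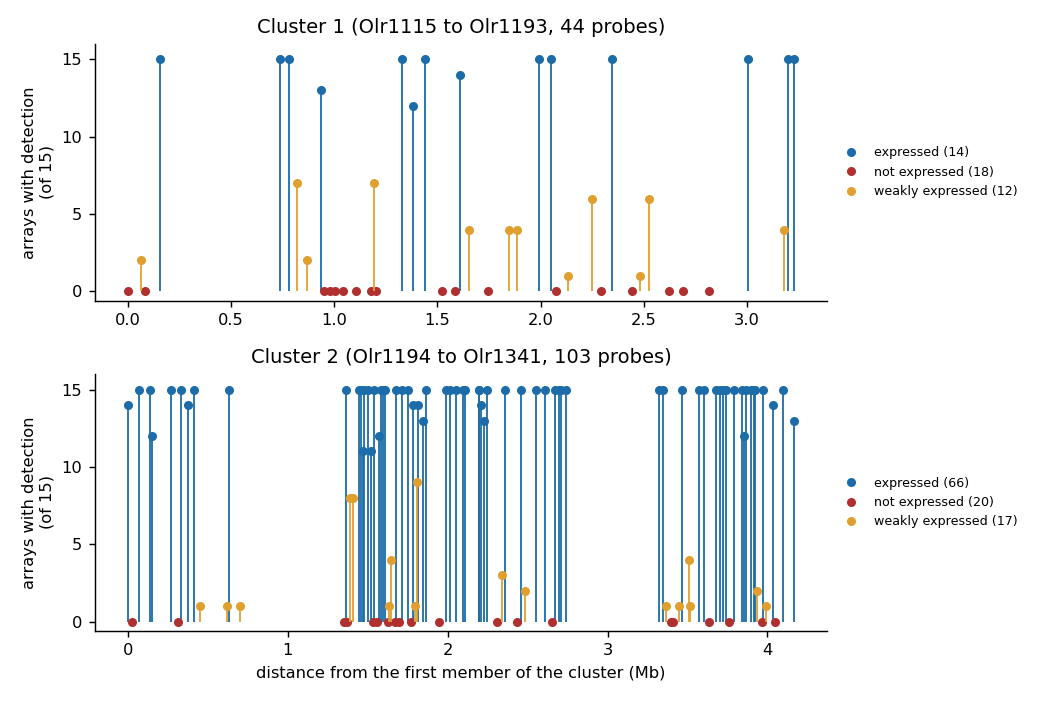
Number of arrays (of 15) on which each probe was well above background, against its distance in Mb from the first member of its cluster, for cluster 1 above and cluster 2 below. Blue points were expressed, yellow weakly expressed and red not expressed; cluster 1 held 14 expressed probes of 44 and cluster 2 held 66 of 103.

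Some runs of neighbouring genes were detected alike. The longest run without detection was in cluster 1, where 6 neighbouring Or7g probes from Olr1128 to Olr1137 (chr8:17054555-17279868) were on 0 arrays. The longest run detected on all 15 arrays was in cluster 2, from Olr1260 to Olr1271 (chr8:40968211-41179140), with 7 probes of Or8b genes and Olr1271. Another 6 neighbours on all arrays lay from Olr1293 to Olr1302 (chr8:41652134-42331524), all Or8g genes. Between such runs detection changed from gene to gene. Olr1244 and Olr1250 were on 0 arrays, and Olr1246 and Olr1249, which lie between them, on all 15.

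The 2 probes of Olr1271 served as a check within a gene. They lie near each other, at chr8:41178242-41178301 and chr8:41179081-41179140 on the plus strand.
Olr1271 (first probe): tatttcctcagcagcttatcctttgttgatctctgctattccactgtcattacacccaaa
Olr1271 (second probe): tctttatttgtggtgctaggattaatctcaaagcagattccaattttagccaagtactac

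Both were detected on all 15 arrays and their log2 signals rose and fell together from array to array (r = 0.963 over 15 arrays, which include both nostrils of 7 rats). The probes of Olr1318 and Olr1320, which may share a target as noted, did so too (r = 0.955).

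Some receptors named in the study fell on either side of the detection limit. Olr1119 (Or7g25c), Olr1121 (Or1m1), Olr1202 (Or8b4), Olr1219 (Or8c13), Olr1237 (Or8b43b) and Olr1302 (Or8g20) were detected on all 15 arrays, Olr1338 (Or8b57) on 14 and Olr1234 (Or8c11) on 12. Olr1163 (Or7d10) was detected on 6 arrays and Olr1125 (Or7g12) on 2. Olr1125 was well above background on 1 male and 1 female array, with its highest log2 signal, -1.66, in nostril B of female 4.

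For members near the detection limit the nostrils of 1 rat did not always have the same call. Of the 147 probes, 46 were detected on at least 1 but not all of the 14 arrays that came as nostril pairs. Their nostrils had the same call in 231 of 322 rat and probe combinations (71.7%), against 68.0% for the other OR probes and 75.05% for all probes. By the looser call the order of members and other OR probes turned, with 63.1% against 67.4%, and 70.3% for all probes. None of these 46 had the same call in the nostrils of every rat, as 3 of 251 other OR probes (1.20%) and 4.66% of such probes over the array had. The number of members detected on an array ranged from 73 to 97. It was higher in nostril B than in nostril A in 6 of 7 rats, for example 92 against 77 in male 2 and 97 against 82 in female 4, and lower in female 8 (73 against 88). In female 3 and in these 3 rats the counts over all probes moved the same way as those of the members, for example from 27557 to 28519 in male 2 and from 28404 to 27923 in female 8. In male 6 and female 7 they fell, from 26548 to 26233 and from 27262 to 27125, while the members rose, and in male 5 they were nearly equal (27080 and 27086). Other OR probes moved with the members in 6 rats and fell in male 5, from 656 to 649.

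Being well above background in 1 sex only was a matter of few arrays. It held for 14 members, 10 in females and 4 in males, and 11 of the 14 rested on a single array. These were 9.52% of the members, against 6.26% of other OR probes and 5.67% of all probes. Of these 14, Olr1156 (Or7g35) had the most arrays, 4 of 8 female and 0 of 7 male arrays. Female rats had a mean log2 signal of -2.51 ± 0.41 and male rats one of -3.01 ± 0.18 (SD over 4 rats each). The female mean did not exceed -2.44, the average over males of the lowest signal called well above background. No fold difference can therefore be given. With the looser call Olr1156 was seen on all 8 female and all 7 male arrays.

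The level of the members was then followed across arrays. The 63 probes detected on all 15 arrays (11 in cluster 1 and 52 in cluster 2) were each centered to a mean of 0, and the median over probes was taken for each array. This median was highest in nostril B of female 3 (0.64), in male 1 (0.48) and in nostril B of female 4 (0.38). It was lowest in nostril B of female 8 (-0.58), nostril A of male 2 (-0.38) and nostril A of female 8 (-0.35). On the other arrays it lay between -0.28 (nostril A of female 4) and 0.29 (nostril A of female 3). The arrays at the ends were both female and differed by more than 1 log2 unit under this scaling. With normexp background correction and quantile normalization the same arrays were at the ends, at 0.342 and -0.266.

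Nearly all members took part in this movement. Of the 63 probes, 57 stood above their own mean in nostril B of female 3, 59 in male 1 and 60 in nostril B of female 4. In nostril B of female 8 only 6 did, and in nostril A of that rat 8. The clusters moved largely together (r = 0.847 between their medians over 15 arrays). Their medians were 0.56 and 0.67 in nostril B of female 3 and -0.53 and -0.61 in nostril B of female 8, but 0.13 and -0.26 in nostril B of male 5. Over the 15 arrays 54 of the 63 members correlated above 0.5 with the median of the other members, with a median r of 0.75. These correlations describe arrays that include both nostrils of 7 rats, and every value is relative to the median of its array, which the members share.

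**Figure D2:**
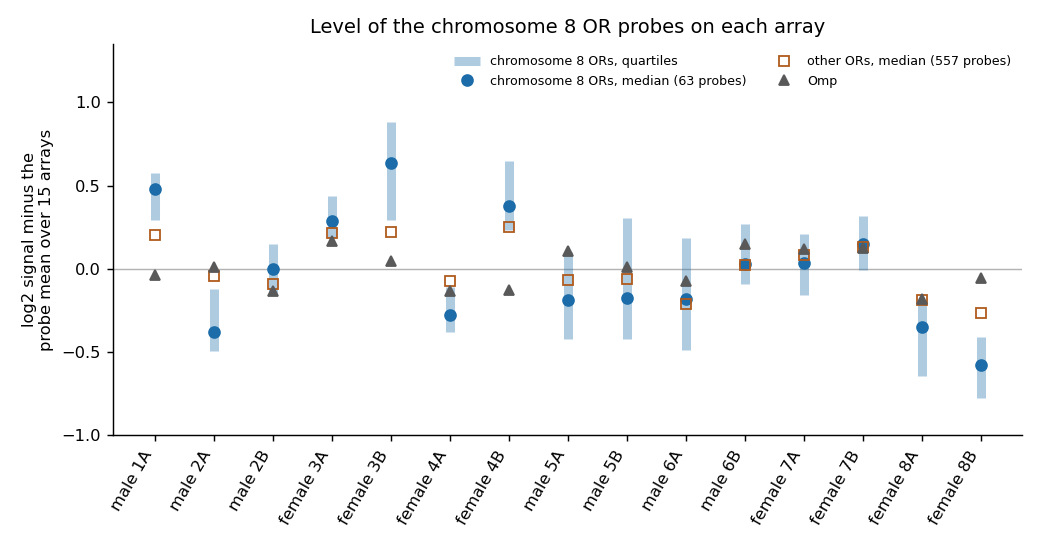
Log2 signal minus the probe mean over the 15 arrays, for each array (rat number and nostril A or B). Blue points are the median of the 63 chromosome 8 probes detected on all arrays and bars their quartiles, open squares the median of 557 other OR probes and triangles Omp; the blue medians run from -0.58 in nostril B of female 8 to 0.64 in nostril B of female 3.

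Other OR probes pooled over chromosomes spanned a smaller range on the same scale, while those of single chromosomes varied. The median of 557 other OR probes detected on all arrays ranged from -0.265 to 0.25, with the low end again in nostril B of female 8. By chromosome, the OR medians of chromosome 1 (125 probes) ran from -0.52 to 0.41 and had their low and high ends in the same arrays as chromosome 8. Those of chromosome 3 (175 probes) ran from -0.30 to 0.28, those of chromosome 7 (52 probes) from -0.31 to 0.36 and those of chromosome 10 (69 probes) from -0.19 to 0.18. Those of chromosome 13 (12 probes) ran from -0.56 to 0.59 and those of chromosome 20 (30 probes) from -0.50 in nostril B of female 8 to 0.46 in male 1. Those of chromosome 15 (23 probes) ran from -0.34 to 0.39, highest in nostril B of female 3. On chromosome 4 (18 probes) the order was turned: the lowest median, -0.31, was in nostril B of female 3 and the highest, 0.16, in nostril B of female 8. On chromosome 11 (24 probes) the lowest was -0.43 in nostril B of male 5. Differences between chromosomes in this respect were not tested.

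Most marker lists of the epithelium spanned a smaller range, though others spanned as much or more. Omp, the olfactory marker protein of mature olfactory neurons, was detected on all arrays and lay between -0.18 and 0.16 around its mean. All 8 genes of the mature neuron list (Omp, Gnal, Adcy3, Cnga2, Cnga4, Cngb1, Stoml3 and Rtp1) were detected, with 11 of 11 probes on all arrays, and their mean per array lay between -0.20 and 0.15. The list of odorant signal transduction, with 19 probes on all arrays, ranged from -0.12 to 0.17. The list of receptor trafficking and choice (14 probes), which includes the OR regulators Lhx2 and Ldb1 and the chaperone Rtp1, ranged from -0.19 to 0.15. Immature neuron genes (5 probes) ranged from -0.19 to 0.17, sustentacular genes (6 probes) from -0.24 to 0.29 and motile cilia genes (4 probes) from -0.38 to 0.35. The basal and progenitor list ranged from -0.36 to 0.36. Of its probes for keratin 14, the one named Krt1-14 was detected on all 15 arrays and the one named Krt14 on 0. Markers of other tissue spread more widely: bone genes from -1.098 to 1.03 with Sp7 on 0 arrays, glia genes from -1.14 to 0.69 with S100b on 0 arrays, and blood genes, 3 probes, from -2.61 to 2.03. Of the 4 skeletal muscle genes none was detected on all arrays, and Myh4 was on 0. None of these lists was lowest in nostril B of female 8, but the receptor trafficking and immature neuron lists were lowest in nostril A of that rat. Sustentacular genes and the receptor trafficking list were highest in nostril B of female 3, as the members were. Their part in the levels of the members was not tested.

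Genes with a known zonal pattern in the epithelium were looked at after the array medians had been seen. Nqo1, an enzyme of neurons in the dorsal zone, was 0.69 above its mean in nostril B of female 3 and 0.58 below it in nostril A of female 8. Omacs, also a dorsal gene, was highest in the same array (0.44) and lowest in nostril A of female 8 (-0.53). Of 3 probes for Robo2, an axon guidance receptor that is higher dorsally, 1 was highest in nostril B of female 3 (0.47) and the other two in nostril B of female 4 (0.56 and 0.29). The 2 probes of Ncam2, an adhesion molecule of the ventral zones, lay between -0.25 and 0.31 and between -0.57 and 0.45, and neither had an end in those arrays. These levels moved with those of the members in several arrays but not in all. In nostril A of male 6 Nqo1 was 0.60 above its mean, where the median of the members was -0.18. Of the Robo2 probes, 2 were lowest in that array (-0.36 and -0.25) and 1 in nostril A of female 8 (-0.35). The part of these genes was not tested.

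A few members did not follow the others. Olr1262 (Or8b54c) had the lowest correlation with the other members (r = -0.36), followed by Olr1261 (Or8b54b, r = -0.35) and Olr1330 (Or10d5, r = -0.24), over 15 arrays each. The first 2 are neighbours in cluster 2, and their probes have different sequences, although the annotation assigns that of Olr1261 to both genes.
Olr1261 (chr8:40998272-40998331, plus strand): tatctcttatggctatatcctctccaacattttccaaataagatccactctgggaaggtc
Olr1262 (chr8:41035969-41036028, plus strand): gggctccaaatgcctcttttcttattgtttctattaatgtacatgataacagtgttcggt

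Olr1262 was highest in nostril B of female 8, at a log2 signal of 1.32, where 6 of the 63 members stood above their own mean and 24 were at their lowest. It was lowest in nostril B of female 4 (-0.06) and in male 1 (0.06), where 60 and 59 of the 63 stood above their own mean. In nostril A of female 3, in contrast, it was near its highest (1.28) while 58 of the 63 stood above their own mean. Olr1261 and Olr1262 moved together (r = 0.92 over 15 arrays). On their flanks, Olr1260 (Or8b53b) correlated with the other members at r = 0.35 and Olr1264 (Or8b55) at r = 0.84. Olr1330, further along the cluster, lies between Olr1329 (Or8d6, r = 0.63) and Olr1331 (Or10d5j, r = 0.72), both of which moved with the rest. Its log2 signal spanned a narrow range, from -1.85 in nostril A of male 5 to -0.99 in nostril B of female 7. These 3 genes were singled out after their values were seen.

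**Figure D3:**
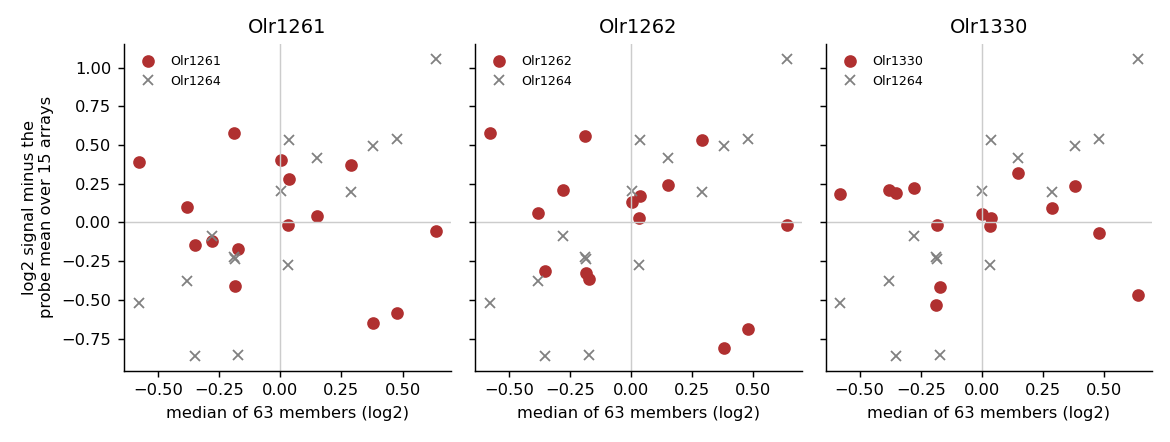
Log2 signal minus the probe mean for Olr1261, Olr1262 and Olr1330 (red points) on each of the 15 arrays, against the median of the 63 members on that array. Crosses are Olr1264, a neighbour with r = 0.84, which rises with the median, while the correlations of the 3 red genes are -0.35, -0.36 and -0.24.

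The nostrils were compared next, with each rat as its own control, in limma with Benjamini-Hochberg adjustment over the 27574 probes that could be tested on single arrays. Of the members, 85 were detected on at least 7 arrays and tested; the other 62 were not. No member passed an adjusted p of 0.01, and the smallest adjusted p was 0.78. Of all probes 0% passed. At an unadjusted p under 0.05 there were 22 of the 85 members (25.9%), all 22 higher in nostril B, against 5.89% of all probes. The difference was in favour of nostril B in 78 of 85 members, against 55.8% of all probes, with a median of 0.22 on the log2 scale against 0.01 over all probes. With normexp and quantile normalization that median was 0.09. Members share arrays and neurons, and these counts carry no test of their own. The letters A and B may not mark the same side in every rat, so the fit tests only a shift shared by the letter.

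The direction was common to most rats but not to all. In female 4, nostril B was higher for 81 of 85 members, with a median difference of 0.68. It was higher for 70 in male 2 (median 0.33), 66 in female 3 (0.33), 55 in male 6 (0.28), 54 in female 7 (0.12) and 44 in male 5 (0.07). In female 8 it was higher for 22, with a median of -0.19. Arrays of the same rat lay on 1 slide except in female 3. Other OR probes followed in female 4 (median 0.44) and male 6 (0.19) and stayed within 0.05 of 0 in the other 5 rats. Single chromosomes differed from this pool. On chromosome 13 nostril B was higher for 12 of 13 probes tested (median 0.21, 23.1% with an unadjusted p under 0.05) and on chromosome 7 for 55 of 64 (median 0.14, 15.6%). On chromosome 4 it was higher for 13 of 23, and 30.4% had such a p. Over the 689 other OR probes tested, 464 were higher in nostril B with a median of 0.10, and 111 (16.1%) had an unadjusted p under 0.05. The count of members rested on single rats and on the pairing. It was 9 without female 4, 10 without male 6, 13 without male 2, 32 without female 8 and 11 without rat in the model. The share of all probes with such a p moved too, to 3.72%, 4.29%, 5.49%, 8.33% and 1.47% in the same order.

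**Figure D4:**
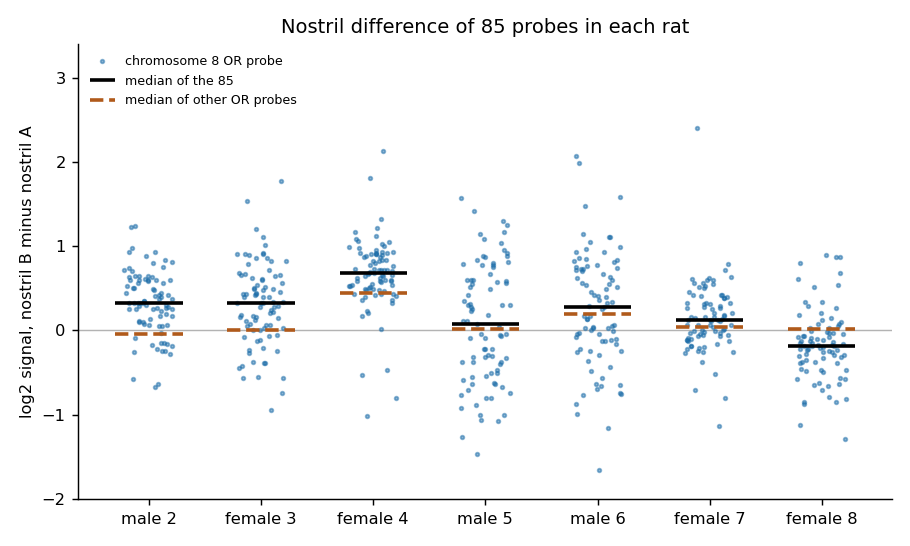
Log2 signal of nostril B minus that of nostril A for the 85 tested probes (blue points) in each of the 7 rats with both nostrils. The solid bar is the median of the 85 and the dashed bar that of other OR probes; the solid bar lies above 0 in 6 rats and at -0.19 in female 8.

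Olr1341 (Or6x1), the last gene of cluster 2, had the largest estimated nostril difference among the tested members. It was well above background on 13 of 15 arrays, and the exceptions were nostril A of male 6 and of female 7. Its log2 signal was higher in nostril B in 7 of 7 rats, by 0.25 in male 2, 0.15 in female 3, 1.80 in female 4, 0.49 in male 5, 2.07 in male 6, 2.40 in female 7 and 0.52 in female 8. The mean difference was 1.098 ± 0.30 (SE, limma adjusted p = 0.78). For male 6 and female 7 the signal in nostril A could not be read, so that their differences, the mean and its rank are estimates that rest in part on undetected values. It was the only tested member higher in nostril B in every rat. Its level in the nostrils overlapped, from -2.63 to -1.29 in nostril A of the paired rats and from -2.11 to -0.12 in nostril B.

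The other members with the smallest p-values had smaller differences. Olr1225 (Or8c17) was higher in nostril B in 6 of 7 rats, by 0.41 ± 0.10, and its neighbour Olr1226 (Or8c18) by 0.35 ± 0.11, also in 6 of 7. Olr1280 (Or8g20b) was higher by 0.44 ± 0.13 and Olr1329 (Or8d6) by 0.53 ± 0.14, each in 6 of 7 rats. Female 8 was the exception for these 4 genes. For Olr1225 the log2 signals in nostril A of the paired rats ran from 0.85 to 1.64 and in nostril B from 0.93 to 2.14, so that the nostrils overlapped across rats. All had a limma adjusted p of 0.78. With normexp and quantile normalization the differences were smaller, at 0.18 for Olr1329 and 0.35 for Olr1341.

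By subfamily the direction was shared widely. Nostril B was higher for 20 of 20 Or8g probes (median 0.31), 9 of 9 Or7g (0.34), 20 of 23 Or8b (0.14), 9 of 10 Or8c (0.21) and 4 of 6 Or10d (0.10). Or8g supplied 8 of the 22 members with an unadjusted p under 0.05, Or7g 4, Or8c 3, Or8b 2 and Or7d, with 2 probes tested, 2. The genes of the odorant signal pathway were higher in nostril B for 18 of 22 tested probes (median 0.03, 0 with an unadjusted p under 0.05). Those of the mature neuron list were higher for 10 of 11 (median 0.02, 0 with such a p). Other genes of the tissue differed between nostrils too, in both directions. Of 7 basal and progenitor probes 0 were higher in nostril B (median -0.14, 4 with an unadjusted p under 0.05). Motile cilia genes were higher in nostril B for 4 of 4 probes (median 0.16, 2 with an unadjusted p under 0.05) and sustentacular genes for 6 of 6 (median 0.08, 1 with such a p). Glia genes were higher for 0 of 4 (median -0.22), blood genes for 0 of 3 (-0.28) and bone genes for 1 of 5 (-0.04). The receptor trafficking list was higher for 9 of 14 (0.01) and the immature neuron list for 3 of 5 (0.01). The 3 Robo2 probes were higher in nostril B in 6 or 7 of 7 rats, by 0.20, 0.26 and 0.19. In limma none of these probes passed an adjusted p of 0.01. Their part in the nostril differences of the members was not tested.

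Whether rats of 1 sex differ by more than their nostrils do was asked with limma's F-statistic over rats, with the difference between nostrils as the error. No member passed an adjusted p of 0.01, against 2.79% of all probes. At an adjusted p under 0.05 there were 8 of 85 (9.41%), against 16.1% of all probes, and at an unadjusted p under 0.05 there were 26 (30.6%), against 37.1%. The median F of the members was 2.60 and that of all probes 2.37. Within a rat the nostrils of a member differed with a median SD of 0.39 on the log2 scale. The F works against limma's moderated form of this error.

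The 8 members past 5% were led by Olr1340, for which the reference table gave no current symbol. Its log2 signal was -1.06 and -1.14 in the nostrils of female 8 and between -0.46 and 0.72 on the other 13 arrays, so that female 8 stood apart from every other rat (F = 11.9, limma adjusted p = 0.012). The next were Olr1316 (Or8g52, F = 7.72, limma adjusted p = 0.028), Olr1323 (Or8g37c, 7.39 and 0.030), Olr1319 (Or8g52b, 7.25 and 0.031) and Olr1198 (7.06 and 0.032). The last 3 were Olr1122 (Or7g16), Olr1326 (Or10d5jl) and Olr1234 (Or8c11), with F from 6.03 to 6.60 and limma adjusted p from 0.037 to 0.044.
Olr1340 (chr8:43078563-43078622, minus strand): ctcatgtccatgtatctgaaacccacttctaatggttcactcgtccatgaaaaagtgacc
Olr1316 (chr8:42661869-42661928, plus strand): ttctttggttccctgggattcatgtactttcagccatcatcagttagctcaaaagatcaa
Olr1198 (chr8:39120365-39120424, plus strand): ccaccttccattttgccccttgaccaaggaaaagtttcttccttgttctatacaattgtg

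These probes are shown because their targets separated female 8 from the other females. Olr1316 had log2 signals of 1.81 and 1.75 in female 8, against 2.37 to 3.29 in the other females and 2.26 to 3.25 in males, so that the ranges did not overlap. Olr1198 had 3.52 and 3.24 in female 8, against 3.82 to 5.02 in the other females and 3.74 to 4.80 in males. Olr1323 had 0.79 and 0.71 in female 8 and at least 1.22 elsewhere. Female 8 had the lowest rat mean for 7 of the 8 genes, although its mean for Olr1326 rests on undetected values. The exception was Olr1234, which was not well above background in either nostril of male 6 or in nostril A of male 5, so that these rats and female 8 (-2.14) have no order. Olr1326 was highest in female 7, at -0.40 and -0.42, and at -2.62 and -2.50 in female 8, where it was not well above background in either nostril. It was also undetected in nostril A of female 4 (-2.51).

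**Figure D5:**
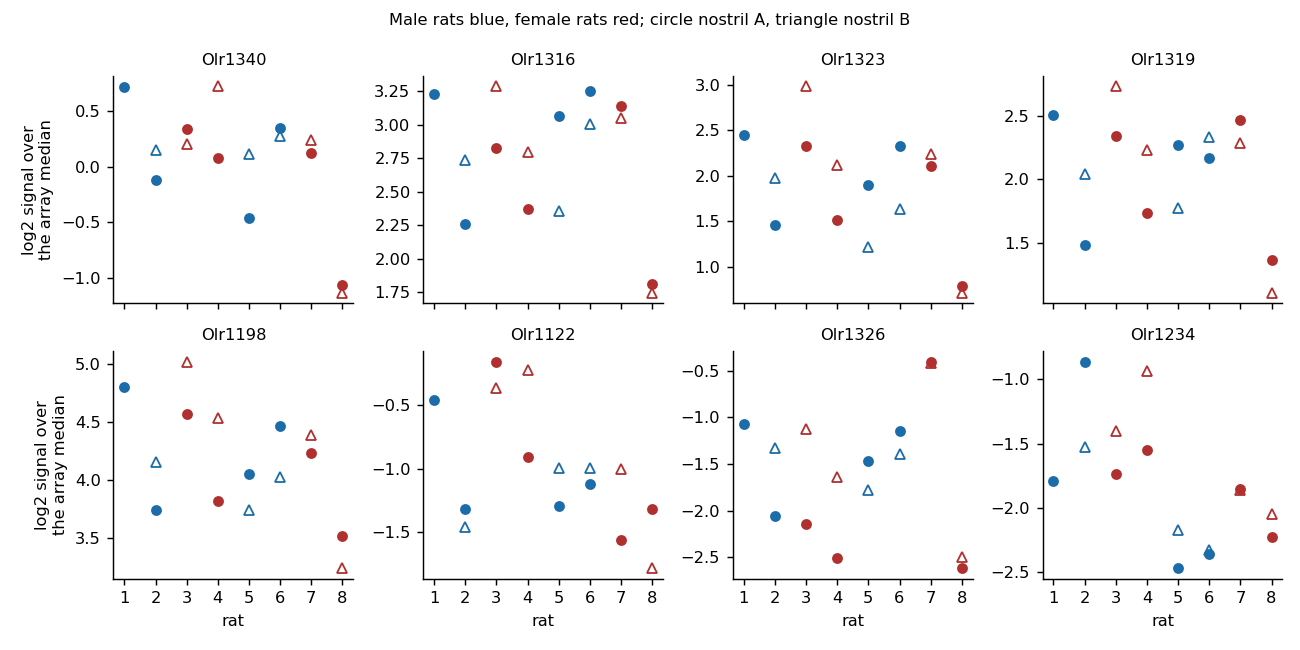
Log2 signal over the array median for the 8 members past 5% in the F-statistic, in each of the 8 rats, with its own axis for each gene. Circles are nostril A and triangles nostril B, males blue and females red. Female 8 has the lowest mean for 7 of the 8 genes, for Olr1326 from undetected values.

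Female 8 was the lowest rat for many more members. Among the 63 probes detected on all arrays, the rat mean was lowest in female 8 for 43, and highest in female 3 for 31 and in male 1 for 21. Without female 8, 0 of the 85 members passed 5% (9.30% of all probes), and without female 7, 1 did (7.11% of all probes). Without female 4, 11 passed 5% (11.8% of all probes) and Olr1340 passed 1% (F = 18.5). Slide differed between rats too, since males 5 and 6 lay on one slide and females 7 and 8 on another. With slide as a block 0 members passed 5%, as did only 0.116% of all probes, and the limma adjusted p of Olr1340 was then 0.15. That fit compares only rats of a sex on the same slide, a narrower question than that of the main F. In it the F was 2.29 for Olr1122 and 1.15 for Olr1234. For the other 6 of the 8 members it ran from 8.05 (Olr1198) to 14.3 (Olr1326), with 10.5 for Olr1340.

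The members with the most and least even levels were picked out in each cluster. Among probes detected on all arrays, Olr1192 (Or7h7) had the largest SD over the 8 rats in cluster 1 (0.48) and Olr1145 (Or7g33c) the smallest (0.13). Olr1145 stayed between -0.44 and 0.53 on all arrays. In cluster 2, among the same kind of probes, Olr1202 (Or8b4) had the largest SD (0.60), with log2 signals from -1.86 in nostril A of female 8 to 0.83 in nostril B of female 3, and Olr1293 (Or8g26) the smallest (0.19). Tested members detected on fewer arrays reached 0.658 in cluster 1 (Olr1126, Or7g41) and 0.649 in cluster 2 (Olr1326).

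The last comparison was between the sexes, over the 8 rats, with the nostrils of each averaged and 27625 probes tested. No member passed an adjusted p of 0.01 in limma, against 0.0434% of all probes, and none passed 5%. At an unadjusted p under 0.05 there were 0 of 85, against 17.1% of all probes. The difference was positive, higher in females, for 46 of 85 members, against 52.1% of all probes, with a median of 0.02 on the log2 scale. Estimates ran from -0.45 to 0.36, with standard errors from 0.10 to 0.40 and a median error of 0.25. A difference of the size of that error could therefore go undetected in a single member.

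For each of the 10 members with the smallest p-values the ranges of the sexes overlapped. Olr1256 (Or8b59) averaged -1.79 ± 0.24 on the log2 scale in females, against -2.11 ± 0.20 in males (SD, 4 rats each, limma adjusted p = 0.35). Olr1341 (Or6x1) was at -1.60 ± 0.54 in females and -1.16 ± 0.12 in males (limma adjusted p = 0.37). The lowest female for Olr1341 was female 8 (-2.37), and the other females, from -1.56 to -1.17, overlapped the males, from -1.30 to -1.05. The next were Olr1260 (Or8b53b, difference -0.38), Olr1223 (Or8c16, -0.41), Olr1124 (Or7g18, 0.22), Olr1229 (Or8c10b, 0.21), Olr1331 (Or10d5j, 0.34), Olr1330 (Or10d5, 0.21), Olr1262 (Or8b54c, 0.23) and Olr1249 (Or8b46b, -0.15). Their limma adjusted p lay between 0.44 and 0.57. Several of these estimates rest in part on arrays without detection, since Olr1124 was well above background on 7 of 15 arrays (2 of 7 male), Olr1223 on 8 (3 of 7 male), and Olr1256 and Olr1341 on 13 each. With normexp and quantile normalization the differences of these 10 kept their sign and were smaller, for example 0.07 for Olr1256, -0.061 for Olr1341, -0.11 for Olr1260 and -0.07 for Olr1223.

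Which rats were included moved the direction of these differences. Up to 4 members, the count without male 1, had an unadjusted p under 0.05 when a rat was left out, against 18.1% of all probes without male 1. Females were higher for 24 of 85 members without female 3 and for 70 without female 8. With slide as a block they were higher for 67 of 85, with a median of 0.24, against 0.06 over all probes. That fit compares the sexes on the single slide that held both, with males 1 and 2 and nostril A of female 3. Again no member passed 1% or 5%.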

How the data were processed

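The authors extracted spot intensity from one-color scans with Agilent's Feature Extraction software, with background subtraction and spatial correction and without replacement of dim values. They also deposited a table of ratio values, each signal over the medians of its array and its probe, used here as an alternative. From the intensity, spots marked as outliers (61 to 175 per array) were left out, spots of 1 probe averaged and the array median divided out. A floor of 0.1 of the median (-3.32 on the log2 scale) was set, and values at it have no order. Arrays had 26233 to 28741 probes above the software's well-above-background flag, and the median intensity of an array was 57.4 to 83.4. Precision depends on how many animals were sampled.

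Fits used limma 3.58.1 in R 4.3.3 (lmFit, eBayes with trend, two-sided) on all probes detected on at least 7 arrays, with Benjamini-Hochberg adjustment over all of them at the 1% of the study; only members are printed. Nostrils were paired by the rat that the labels name. Probes with a spot left out on some array were dropped from fits on single arrays. The fits were tested on simulated data. Members split into clusters at gaps over 1 Mb.

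The members and lists were chosen with earlier results of these data known. Named were members past 1% in a fit and the 10, 8 and 5 with the smallest p for sex, rats and nostril. Also named were members whose nostrils got the same call in all rats and those with the largest and smallest SD per cluster. The rest were those the study names, those with a nearly matching OR probe (at least 50 of 60 bases) and those seen in 1 sex only. That last rule asked for at least 50% of the arrays of that sex, which Olr1156 met. Symbols came from RefSeq by accession. Of the gene lists, Gng13, Ano2, Emx2, Ebf4, Kdm1a, Dnah5 and Hba-a1 were not found by name. Protein sequences and groups of members by protein identity were not used here. Alternatives were other scalings, filters, detection calls, units of replication, slide or rat as a block and leaving out each rat.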

Additional observations from a re-analysis of the deposited data

Results flagged for a closer look

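Of 76 groups of rats examined, for the named members and for the array medians, 5 held a rat whose gap to the nearest other was large against the range of its group. Chance gives about 5% of groups such a gap where groups are not picked for their spread. Some members, among them Olr1340 and Olr1202, were named for their spread over these same rats. The 5% is therefore no measure of these flags. Among females, Olr1119 was highest in female 3, with a rat mean of 0.63 on the log2 scale against -0.50 to -0.34 in the others. Olr1202 was lowest in female 8 (-1.46 against -0.14 to 0.06), as was Olr1340 (-1.10 against 0.18 to 0.40). Olr1330 was lowest in female 3 (-1.50 against -1.14 to -1.08). Among males, the median over the 63 members detected on all arrays was highest in male 1 (0.48 against -0.19 to -0.08), the rat for which nostril A alone was measured.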

How the results depend on the processing

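The counts of members at an adjusted p of 0.01 stayed at 0 in all fits but one, the F-statistic over rats without female 4, which called 1 (0 to 1 over the rats left out). At 5% the F-statistic, with 8 members, gave 4 from the deposited ratio table and 1 without the filter on dim probes. It gave 0 with slide as a block, which compares only rats sharing a slide, and 0 to 11 leaving out a rat. For nostrils, the 22 members with an unadjusted p under 0.05 became 10 of 147 without the filter, 11 with no replicate block (rat left out of the model, although the labels pair the nostrils of an animal), 15 with the ratio table, 16 with 75th percentile scaling, 19 with normexp and quantile normalization and 9 to 32 leaving out a rat; nostril B was higher for 62 to 80 of 85 then. A floor of 0.02 and a filter of 11 arrays left 22. For sex, the 0 members with an unadjusted p under 0.05 became 1 with the ratio table and 1 with arrays as independent. They became 2 with slide as a block and 0 to 4 leaving out a rat. A t-test over rat means, with nostrils averaged and the 1% threshold of the study, gave 0 before and after Benjamini-Hochberg adjustment. Females were higher for 24 to 70 of 85 leaving out a rat. With expression asked on all 15 arrays, 46 members were weakly expressed. With the positive and significant call 8 were not expressed, and nostrils shared 63.1% of calls (other OR probes 67.4%). Of the named members' estimates under alternatives, 176 of 178 for sex and 70 of 70 for nostrils kept their sign. The F of the 8 members past 5% fell to between 2.29 and 5.38 without female 8, and that of Olr1340 rose to 18.5 without female 4, past 1%. The sex differences of Olr1229 (-0.089) and Olr1249 (0.10) reversed with slide as a block. The causes were not tested. The lowest signal called well above background on an array was 10.01 to 14.49 intensity units. Probes below it could not be read, and some above it lacked the call too, such as Olr1124 in male 1.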
